A study of Mus musculus with 2 samples.

Results

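The genes described here are the 10 mouse genes that encode the transforming growth factor β (TGF-β) ligands (*Tgfb1*, *Tgfb2* and *Tgfb3*), their receptors (*Tgfbr1*, *Tgfbr2* and *Tgfbr3*) and the latent TGF-β binding proteins (*Ltbp1*, *Ltbp2*, *Ltbp3* and *Ltbp4*). They were found by exact symbol, and all 10 were present among the 24421 rows of the deposited count table. The table holds 2 RNA-Seq libraries, 1 of primary chondrocytes digested with collagenase from the rib cartilage of newborn mice and used within 2 passages, and 1 of primary dermal fibroblasts released with collagenase from the dorsal skin of newborn mice. The libraries served the study to find genes more abundant in chondrocytes than in fibroblasts. The labels name no strain, genotype, treatment, sex or number of pooled animals for either library. Each cell type has 1 library, so no difference below has a replicate check and no p-value is given. In a bulk library, fewer cells of a type and less RNA per cell cannot be told apart.

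TGF-β is made as a precursor whose propeptide stays wrapped around the mature ligand after cleavage, and in most cells this latent complex is disulfide-bonded to a latent TGF-β binding protein that anchors it to fibronectin and fibrillin in the matrix. Integrins, proteases and thrombospondin can release the ligand, which binds the type II receptor TGFBR2, and this recruits and phosphorylates the type I receptor TGFBR1, which in turn phosphorylates SMAD2 and SMAD3. Betaglycan, the product of *Tgfbr3*, presents ligand to TGFBR2 and matters most for TGF-β2. In cartilage the pathway is known for early condensation of mesenchyme, for holding back hypertrophy and for the upkeep of articular cartilage, and in skin it is known for matrix production by fibroblasts.

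The total was 18788599 counts for the chondrocyte library against 17563724 for the dermal fibroblast library, and 17718 rows had a count in either. Levels are given as CPM, the count of a gene per 1000000 of the effective library size, which is the total count multiplied by the trimmed mean of M values (TMM) factor. The labelled cell types were visible in their markers. All 12 chondrocyte markers were over 2-fold higher in chondrocytes, with summed levels of 105936 and 31.1 CPM, and *Col2a1* (type II collagen), *Matn1* and *Lect1* were at 0 counts in dermal fibroblasts. Of 9 fibroblast markers, 8 were over 2-fold higher in dermal fibroblasts (summed levels of 6517 CPM in chondrocytes and 49513 CPM in dermal fibroblasts), and all 9 also reached 100 counts in chondrocytes. Markers of other cells were also present. Their summed levels, chondrocytes first, were 2008 and 1392 CPM for 11 skeletal muscle genes, 728 and 314 CPM for 6 smooth muscle and pericyte genes (124 and 153 CPM for the 5 without *Cspg4*), 121 and 190.1 CPM for 8 macrophage genes, 16.3 and 47.4 CPM for 7 endothelial genes, 8.98 and 255 CPM for 8 keratinocyte genes, and 32.5 and 0.869 CPM for 5 osteoblast genes. Of the 11 skeletal muscle genes, 6 were over 2-fold higher in chondrocytes and 0 in dermal fibroblasts, against 10.7% and 13.9% of the 17718 genes with a count. *Dsg3* (keratinocyte) was at 0 in chondrocytes, *Bglap* (osteoblast) was at 0 in dermal fibroblasts, and no other marker outside the chondrocyte list was at 0 in either library. The part of these other cells in the differences below was not tested.

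The ligands differed in direction from one another, the 3 receptors were all lower in chondrocytes, and the 4 latent binding protein genes were all higher there. In chondrocytes *Tgfb2* was 6.75-fold higher, *Ltbp3* 3.24-fold, *Ltbp1* 2.45-fold and *Ltbp4* 2.04-fold. In dermal fibroblasts *Tgfbr3* was 3.84-fold higher, *Tgfb1* 3.39-fold and *Tgfbr2* 2.40-fold. *Tgfb3*, *Tgfbr1* and *Ltbp2* lay within 2-fold. Thus 4 of the 10 genes were over 2-fold higher in chondrocytes, against 10.7% of the 17718 genes with a count, and 3 were over 2-fold higher in dermal fibroblasts, against 13.9% of them. Every member had more than 500 counts in at least 1 library, and among the 6985 genes of that depth the shares were 7.99% and 12.3%. The whole 95% counting interval lay beyond 2-fold for 3 members in each direction, against 5.88% and 8.73% of all genes with a count. Genes with few counts have wider intervals, and these 2 shares were not taken among the 6985 genes of the members' depth. Over 4-fold, 1 member (*Tgfb2*) was higher in chondrocytes, against 4.02% of genes with a count, and 0 in dermal fibroblasts, against 5.24%. The intervals hold counting error alone, and since the reads carry no molecular identifiers, several may stem from a single molecule.

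**Figure D1:**
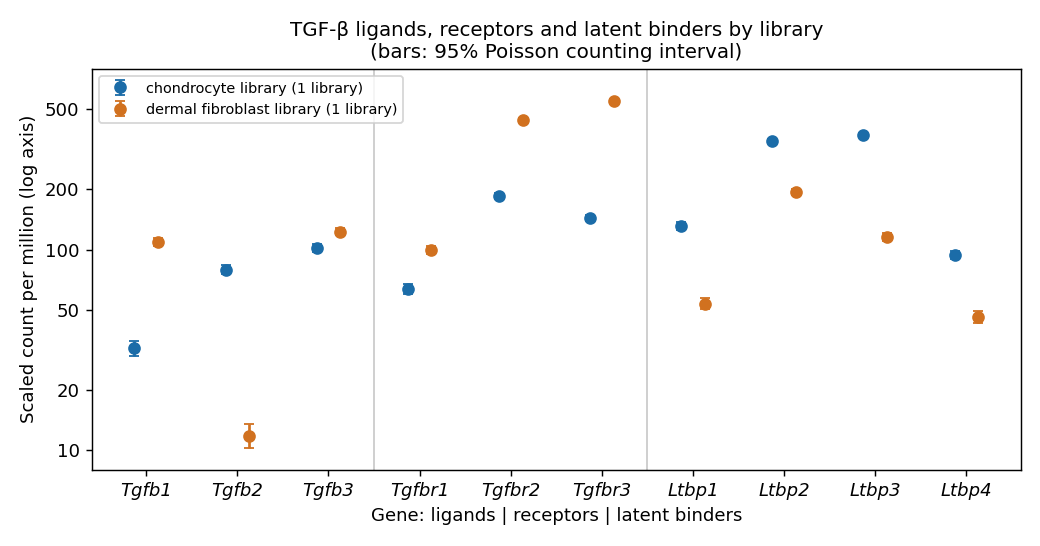
Scaled CPM of each of the 10 genes (log axis) in the chondrocyte library (blue) and the dermal fibroblast library (orange), 1 library per cell type, with 95% Poisson counting intervals as bars. *Tgfb2* shows the widest gap, at 79.6 against 11.8 CPM, the 3 receptor genes are higher in dermal fibroblasts, and the 4 latent binding protein genes are higher in chondrocytes.

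*Tgfb2* encodes TGF-β2, the isoform whose propeptide lacks the integrin-binding RGD sequence carried by the other two. Its 1426 chondrocyte counts and 217 dermal fibroblast counts gave 79.6 CPM (interval 75.5 to 83.8) against 11.8 CPM (10.3 to 13.5). It was the gene with the largest difference among the 10, at 6.75-fold (interval 5.85 to 7.82), and 148 of the 6985 genes with at least 500 counts had a higher log2 fold. The gene lies on chromosome 1 of GRCm38 from 186622787 to 186709697, minus strand. *Tgfb1* encodes TGF-β1, the isoform best known in wound repair and fibrosis, and lies on chromosome 7 from 25687002 to 25705077, plus strand. It went in the other direction, with 577 counts (32.2 CPM, interval 29.6 to 34.9) in chondrocytes and 2007 counts (109 CPM, interval 104 to 114) in dermal fibroblasts. The level in dermal fibroblasts was 3.39-fold higher (interval 3.09 to 3.72). *Tgfb3* encodes TGF-β3, widely used to induce cartilage formation in cultured mesenchymal cells, and lies on chromosome 12 from 86056743 to 86079041, minus strand. It had 1834 counts (102 CPM) in chondrocytes and 2267 counts (123 CPM) in dermal fibroblasts. The difference of 1.20-fold in favour of dermal fibroblasts (interval 1.13 to 1.28) exceeded counting error but was small, and it ranged from 1.11 to 1.32 under the other scalings.

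The start regions of the ligand genes that moved in opposite directions are shown because they differ in base composition and in the motifs they hold. RefSeq start regions, 250 bases before to 50 after an annotated start site in GRCm38.p6, were matched for 8 of the 10 genes (12 regions), and for *Tgfb3* and *Tgfbr3* none was matched. The 5 short motifs searched were chosen after the sequences were seen and were read on either strand, namely the TATA box TATAAA, the E-box CACGTG, the cAMP response element TGACGTCA, the GC box GGGCGG and the AP-1 site TGAGTCA. They occur in 13.6%, 7.15%, 1.79%, 35.7% and 5.20% of the 32851 start regions in the table. Capitals mark the matches.
Tgfb2, chr1:186705940-186706239, minus strand: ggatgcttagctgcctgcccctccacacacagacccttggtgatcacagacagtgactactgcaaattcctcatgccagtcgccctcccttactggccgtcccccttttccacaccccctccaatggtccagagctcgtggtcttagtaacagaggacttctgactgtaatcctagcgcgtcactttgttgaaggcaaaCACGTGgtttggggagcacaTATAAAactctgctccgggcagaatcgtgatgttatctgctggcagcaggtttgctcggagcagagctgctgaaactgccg
Tgfb1, chr7:25686752-25687051, plus strand: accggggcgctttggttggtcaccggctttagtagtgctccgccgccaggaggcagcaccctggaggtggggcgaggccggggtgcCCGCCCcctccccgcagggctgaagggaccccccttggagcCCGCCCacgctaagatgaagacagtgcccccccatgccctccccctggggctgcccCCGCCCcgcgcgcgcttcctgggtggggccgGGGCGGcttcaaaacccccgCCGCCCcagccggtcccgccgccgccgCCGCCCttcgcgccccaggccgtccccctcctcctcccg
The *Tgfb2* region had a GC content of 54.3%, higher than 54.5% of all start regions. It held TATAAA starting 31 bases before the start site and CACGTG starting 51 bases before it. The RefSeq span of the gene reaches further upstream than this start. The *Tgfb1* region had a GC content of 77.0%, higher than 97.6% of start regions, and held 6 matches to the GC box and none to the other motifs. A match in these letters is a description and no measurement of binding.

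*Tgfbr3*, on chromosome 5 from 107106567 to 107289629, minus strand, encodes betaglycan, the coreceptor without kinase activity. It had 2579 counts (144 CPM, interval 138 to 149.5) in chondrocytes and 10184 counts (553 CPM, interval 542 to 564) in dermal fibroblasts. This was the largest difference in favour of dermal fibroblasts among the 10, at 3.84-fold (interval 3.68 to 4.02), and 330 of the 6985 genes with at least 500 counts had a lower log2 fold. *Tgfbr2*, on chromosome 9 from 116087695 to 116175363, minus strand, encodes the type II receptor kinase that binds ligand first. It had 3320 counts (185 CPM) in chondrocytes and 8182 counts (444 CPM) in dermal fibroblasts, a 2.40-fold higher level in dermal fibroblasts (interval 2.30 to 2.50). *Tgfbr1*, on chromosome 4 from 47353222 to 47414926, plus strand, encodes the type I receptor kinase ALK5. It had 1144 counts (63.8 CPM) in chondrocytes and 1836 counts (99.7 CPM) in dermal fibroblasts, and the difference of 1.56-fold (interval 1.45 to 1.68) stayed within 2-fold. The receptors were thus lower in chondrocytes to unequal degrees, the coreceptor most and the type I receptor least.

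*Ltbp3*, on chromosome 19 from 5740900 to 5758536, plus strand, encodes a binding protein that, with LTBP1, can hold all of the TGF-β isoforms. It had 6714 counts (375 CPM, interval 366 to 384) in chondrocytes and 2130 counts (116 CPM, interval 111 to 121) in dermal fibroblasts. It was 3.24-fold higher in chondrocytes (interval 3.08 to 3.40). *Ltbp1*, on chromosome 17 from 75005480 to 75392512, plus strand, encodes the founding member of the family, which tethers latent TGF-β to fibronectin and fibrillin. It had 2352 counts (131 CPM) in chondrocytes and 987 counts (53.6 CPM) in dermal fibroblasts, a 2.45-fold difference (interval 2.27 to 2.64). *Ltbp4*, on chromosome 7 from 27305140 to 27339720, minus strand, encodes a member that binds latent TGF-β1 alone and takes part in elastic fibre assembly. It had 1689 counts (94.2 CPM) in chondrocytes and 849 counts (46.1 CPM) in dermal fibroblasts. Its 2.04-fold difference had an interval from 1.88 to 2.22 that reached below 2-fold, and scaling by total counts lowered it to 1.86-fold. *Ltbp2*, on chromosome 12 from 84783212 to 84876558, minus strand, encodes the member that binds fibrillin but no latent TGF-β. It had 6226 counts (347 CPM) in chondrocytes and 3557 counts (193 CPM) in dermal fibroblasts and was 1.798-fold higher in chondrocytes (interval 1.72 to 1.87). The 4 genes therefore shared a direction. *Ltbp2* had the smallest difference, just below that of *Ltbp4*, and a link between ligand binding and the size of the folds was not tested.

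The start regions of the binding protein genes with the largest differences are shown for comparison with those of the ligands.
Ltbp3, chr19:5740650-5740949, plus strand: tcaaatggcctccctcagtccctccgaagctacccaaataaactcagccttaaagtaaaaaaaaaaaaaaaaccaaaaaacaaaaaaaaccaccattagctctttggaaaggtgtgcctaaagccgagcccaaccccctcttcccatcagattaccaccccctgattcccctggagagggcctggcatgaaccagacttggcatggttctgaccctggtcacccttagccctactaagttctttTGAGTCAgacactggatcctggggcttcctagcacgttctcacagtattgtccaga
Ltbp1, chr17:75005279-75005578, plus strand: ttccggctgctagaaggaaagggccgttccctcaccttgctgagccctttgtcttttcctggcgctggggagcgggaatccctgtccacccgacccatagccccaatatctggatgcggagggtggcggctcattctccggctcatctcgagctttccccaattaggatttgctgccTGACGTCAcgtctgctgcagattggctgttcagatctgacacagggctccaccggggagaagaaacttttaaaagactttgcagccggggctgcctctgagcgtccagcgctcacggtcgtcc
The *Ltbp3* region had a GC content of 48.0% and held a single match, TGAGTCA starting 6 bases before the start site. The *Ltbp1* region had a GC content of 58.7% and held a single match, the palindrome TGACGTCA starting 73 bases before the start site. A separate *Ltbp1* start region further downstream held none of the motifs. Neither *Ltbp* region shown held a GC box, while all 3 *Ltbp4* start regions and the *Ltbp2* region did. No motif of the 5 was therefore common to the start regions of all 4 *Ltbp* genes. The *Ltbp4* regions had GC contents of 80.3%, 81.3% and 64.3% and held 7, 9 and 3 GC box matches. The regions at 80.3% and 81.3% overlap over most of their length (27333599 to 27333898 and 27333614 to 27333913). All 7 matches of the former are also among the 9 of the latter, so these counts are not of separate sites. *Ltbp4* was higher in chondrocytes, unlike the GC-rich *Tgfb1*. A link between base composition or motifs and the direction of the folds was not tested.

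**Figure D2:**
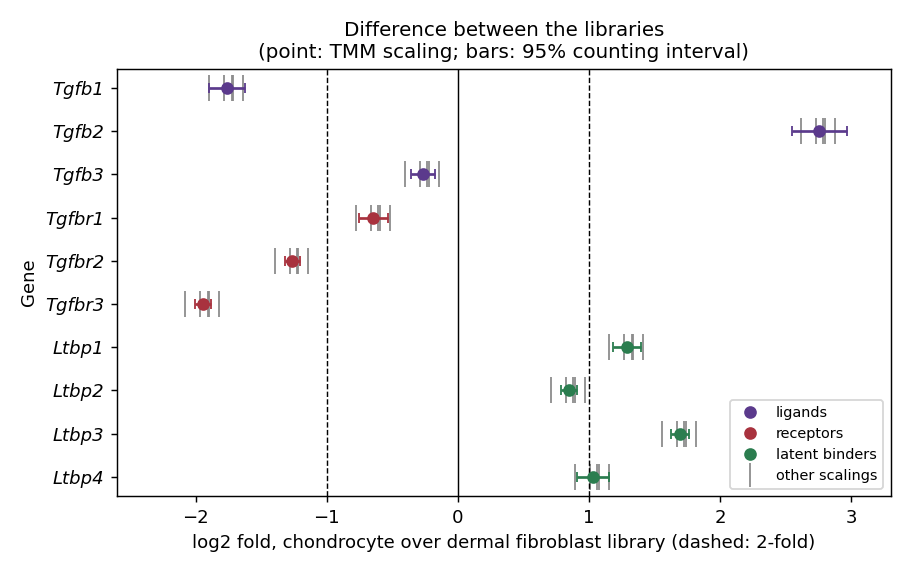
log2 fold of the chondrocyte over the dermal fibroblast library for each gene, with the TMM scaling as points, 95% counting intervals as bars and the 5 other scalings as grey ticks; dashed lines mark 2-fold. No gene changes direction under any scaling, from *Tgfb2* at 2.75 to *Tgfbr3* at -1.94, and *Ltbp4* at 1.03 is the gene whose ticks fall on both sides of a dashed line.

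Levels of different genes were compared per kilobase of exon. In chondrocytes *Ltbp3* led at 72.0 CPM per kb, followed by *Ltbp2* (42.4), *Tgfb3* (30.2), *Tgfbr2* (22.9), *Tgfbr3* (22.0), *Tgfb2* (16.4), *Ltbp4* (14.6), *Tgfb1* (12.6), *Ltbp1* (12.3) and *Tgfbr1* (9.77). Neighbours in this order differed beyond counting error except for *Tgfbr2* and *Tgfbr3* (ratio 1.04, interval 0.989 to 1.10) and *Tgfb1* and *Ltbp1* (ratio 1.03, interval 0.934 to 1.12). These intervals leave out the uncertainty of the exon length, on which 5 of the 10 places depended. With the longest transcript in place of all exons, *Ltbp1* was at 19.7 CPM per kb and moved from rank 9 to 6, *Tgfb2* moved from 6 to 8, below *Ltbp4* (16.8 against 17.5 CPM per kb), *Tgfb1* moved from 8 to 9, and *Tgfbr2* and *Tgfbr3* changed places. In dermal fibroblasts the receptors led, with *Tgfbr3* at 84.5 and *Tgfbr2* at 54.9 CPM per kb, followed by *Tgfb1* (42.6), *Tgfb3* (36.4), *Ltbp2* (23.6), *Ltbp3* (22.3), *Tgfbr1* (15.3), *Ltbp4* (7.14), *Ltbp1* (5.02) and *Tgfb2* (2.43). Every neighbour in that order differed beyond counting error, by as little as 1.06 (interval from just above 1 to 1.12) for *Ltbp2* over *Ltbp3*, and the order was the same with the longest transcripts. Against all 15904 genes with a length and a count, *Ltbp3* stood above 95.8% in chondrocytes and 85.1% in dermal fibroblasts, *Tgfbr3* above 85.1% and 96.5%, and *Tgfb2* above 80.5% and 43.2%.

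**Figure D3:**
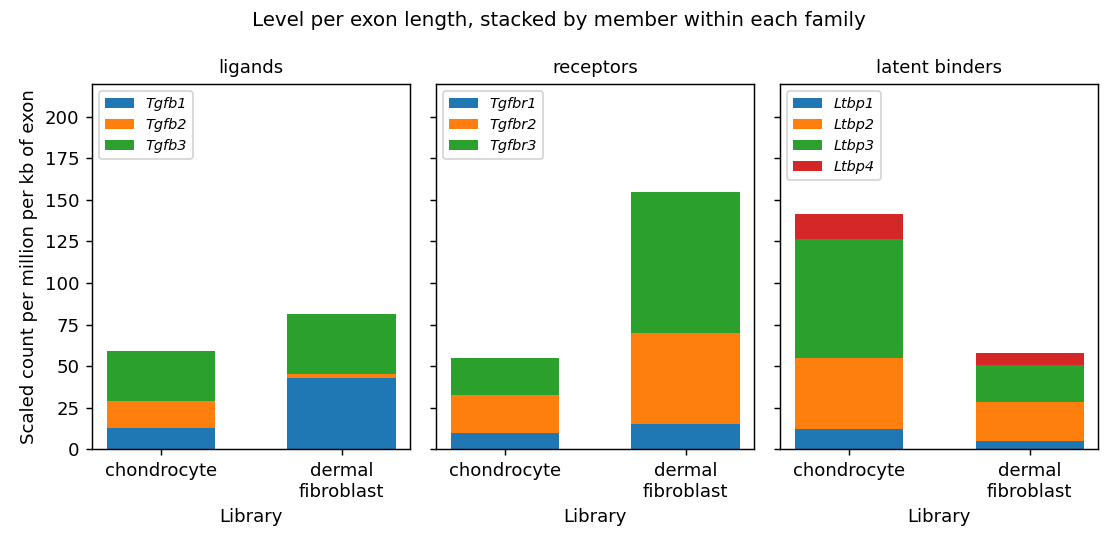
Scaled CPM per kilobase of exon, stacked by gene within the ligands, the receptors and the latent binding proteins, for the chondrocyte and the dermal fibroblast library. The receptor stack is lower in chondrocytes (54.7 against 155) and the binding protein stack is higher (141 against 58.0). The ligand stack is lower in chondrocytes (59.2 against 81.4), and *Tgfb2* takes 16.4 of it there and 2.43 in dermal fibroblasts.

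The composition of the ligand pool differed more than its sum. The 3 ligand genes together had 214 CPM in chondrocytes and 244 CPM in dermal fibroblasts, 1.14-fold apart (interval 1.09 to 1.19). Their sums per exon length lay further apart, at 59.2 CPM per kb in chondrocytes and 81.4 in dermal fibroblasts. Per exon length, *Tgfb3* made up 51.0% of the ligand transcripts in chondrocytes, *Tgfb2* 27.7% and *Tgfb1* 21.2%, whereas in dermal fibroblasts *Tgfb1* made up 52.3%, *Tgfb3* 44.7% and *Tgfb2* 2.99%. The count ratio of *Tgfb2* to *Tgfb1*, from which library size and gene length cancel when the libraries are compared, was 22.8 times higher in chondrocytes (exact interval 19.2 to 27.2). The ratio of *Tgfb2* to *Tgfb3* was 8.12 times higher (interval 6.94 to 9.53), and that of *Tgfb3* to *Tgfb1* was 2.81 times higher (interval 2.51 to 3.15). Per length, *Tgfb1* exceeded *Tgfb2* 17.5 times in dermal fibroblasts and was below it in chondrocytes, at a ratio of 0.766 (interval 0.694 to 0.844). With the longest transcripts *Tgfb1* stayed below *Tgfb2* in chondrocytes but came closer, at 14.8 against 16.8 CPM per kb.

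The 3 receptor genes together were 2.79-fold higher in dermal fibroblasts (393 against 1097 CPM, interval 2.72 to 2.87), and the 4 binding protein genes together were 2.32-fold higher in chondrocytes (947 against 409 CPM, interval 2.26 to 2.38). Per length, *Tgfbr3* made up 40.2% of the receptor transcripts in chondrocytes and 54.6% in dermal fibroblasts, *Tgfbr2* 41.9% and 35.5%, and *Tgfbr1* 17.9% and 9.86%. With the longest transcripts the order in chondrocytes changed, to 41.0% for *Tgfbr3* and 39.7% for *Tgfbr2*. The count ratio of *Tgfbr1* to *Tgfbr3* was 2.46 times higher in chondrocytes (interval 2.26 to 2.68), and that of *Tgfbr2* to *Tgfbr3* 1.60 times (interval 1.51 to 1.70). Within the binding proteins *Ltbp3* took 51.0% in chondrocytes and 38.4% in dermal fibroblasts, *Ltbp2* took 30.0% and 40.7%, *Ltbp4* took 10.3% and 12.3%, and *Ltbp1* took 8.69% and 8.65%. With the longest transcripts *Ltbp1* took 12.2% and *Ltbp4* 10.9% in chondrocytes. All 12 ratios between members of a family differed between the libraries beyond counting error, the least being *Ltbp2* to *Ltbp4*, lower by a factor of 0.880 in chondrocytes (interval 0.801 to 0.966). Counted over whole families, the ratio of binding protein to receptor reads was 6.47 times higher in chondrocytes (interval 6.23 to 6.73). The ratio of ligand to receptor reads was 2.45 times higher (interval 2.33 to 2.58). Taken per exon length, the ratio of ligands to receptors was 1.08 in chondrocytes and 0.526 in dermal fibroblasts.

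**Figure D4:**
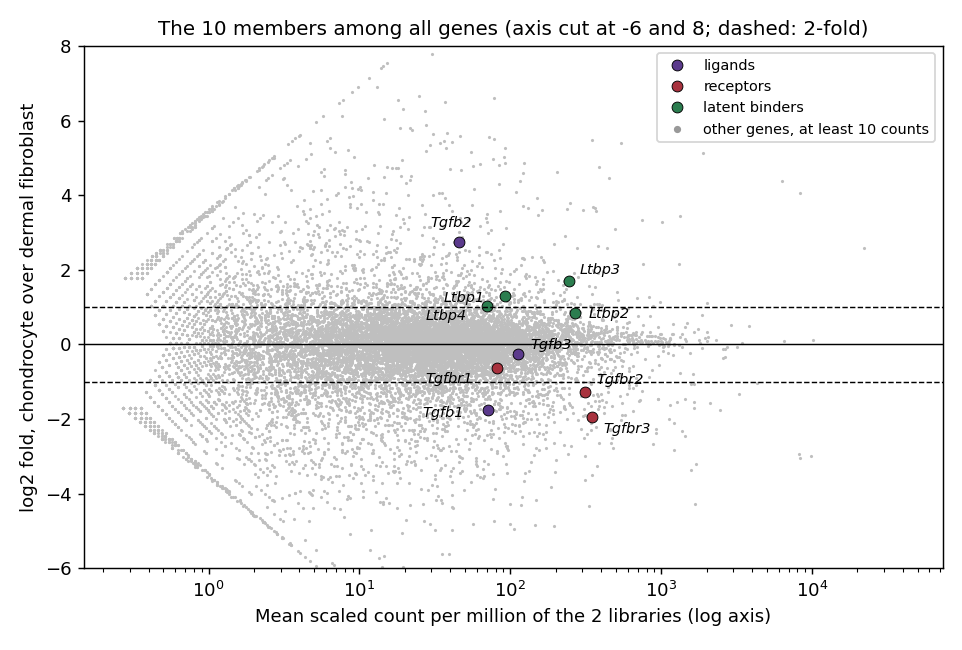
log2 fold of the chondrocyte over the dermal fibroblast library against the mean scaled CPM (log axis) for all genes with at least 10 counts in either library (grey), with the 10 genes in colour by family; the fold axis is cut at both ends, as its title states. *Tgfb2* (2.75) and *Ltbp3* (1.69) lie above the upper 2-fold line and *Tgfbr3* (-1.94) and *Tgfb1* (-1.76) below the lower one.

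Genes that act around the ligands were described from 6 lists, which hold 71 genes in all. Of these, 11 (15.5%) were over 2-fold higher in chondrocytes and 28 (39.4%) in dermal fibroblasts. Over the 14291 genes with at least 10 counts, the shares were 11.8% and 16.2%, and 72.0% lay within 2-fold, which is the background for each list below. The chondrocyte share of the 71 genes was thus near the background. For the 70 with at least 10 counts, the median log2 fold was -0.48 against 0.00 over those 14291 genes. Among 16 genes of activation and processing, 8 were over 2-fold higher in dermal fibroblasts (background 16.2%) and 0 in chondrocytes (background 11.8%), where *Itgb6* passed 2-fold when scaled by *Actb* counts, with a median log2 fold of -0.98. *Plat*, the tissue plasminogen activator, had 182 chondrocyte and 1514 dermal fibroblast counts and was 8.10-fold higher in the latter (interval 6.94 to 9.50). *Mmp14*, the membrane-bound metalloproteinase MT1-MMP, had 4317 and 28140 counts and was 6.35-fold higher there (interval 6.15 to 6.55). The integrin subunit *Itgb3* had 135 and 699 counts and was 5.04-fold higher there (interval 4.19 to 6.11). The most abundant gene of this list, *Thbs1*, which encodes the latent TGF-β activator thrombospondin-1, went the other way, with 80164 and 58838 counts and a 1.40-fold higher level in chondrocytes (interval 1.38 to 1.41).

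Of 7 matrix scaffold genes, 2 were over 2-fold higher in chondrocytes (background 11.8%) and 4 in dermal fibroblasts (background 16.2%; median log2 fold of -1.05). Fibronectin, to which LTBP1 is anchored, was abundant in both libraries, as *Fn1* had 674829 chondrocyte and 116258 dermal fibroblast counts and was 5.96-fold higher in chondrocytes (interval 5.92 to 5.999). *Emilin1*, which encodes an elastic fibre protein known to restrain TGF-β1 maturation, was 5.95-fold higher there, with 13477 and 2328 counts (interval 5.69 to 6.22). Fibrillin-2 (*Fbn2*) was 3.75-fold higher in dermal fibroblasts, with 2281 and 8785 counts (interval 3.58 to 3.93). *Fbln5*, encoding the elastic fibre protein fibulin-5, was 2.31-fold higher there, with 1755 and 4157 counts (interval 2.18 to 2.44). *Adamtsl2*, whose protein binds LTBP1 and fibrillin, had 18 and 181 counts and differed 9.79-fold (interval 6.02 to 16.9) in favour of dermal fibroblasts. The transcripts of the matrix scaffold list were therefore split in direction, with more of them over 2-fold higher in dermal fibroblasts, while the 4 *Ltbp* genes were not split.

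Of 11 accessory receptors and extracellular binders, 3 were over 2-fold higher in chondrocytes (background 11.8%) and 6 in dermal fibroblasts (background 16.2%; median log2 fold of -1.03). *Dcn* (5247 and 18509 counts), among these 6, is also among the 9 fibroblast markers. *Fmod*, encoding the collagen-bound proteoglycan fibromodulin, had 12306 and 1051 counts and was 12.03-fold higher in chondrocytes (interval 11.3 to 12.8). *Bambi*, a pseudoreceptor that lacks the kinase domain, had 595 and 69 counts and was 8.86-fold higher there (interval 6.89 to 11.5). *Cd109*, a coreceptor that dampens TGF-β signaling, had 7029 and 2990 counts and was 2.41-fold higher there (interval 2.31 to 2.52). In dermal fibroblasts *Lrg1* was 12.05-fold higher (51 and 631 counts, interval 9.05 to 16.4), the protease gene *Htra1* was 5.15-fold higher (909 and 4812 counts, interval 4.80 to 5.54), and *Acvrl1*, the type I receptor ALK1, was 3.65-fold higher (204 and 765 counts, interval 3.12 to 4.28). *Lrg1* and *Acvrl1* are known from endothelium, whose markers *Cdh5* (68 and 198 counts) and *Kdr* (70 and 276 counts) were also higher in dermal fibroblasts, and the part of endothelial cells in these differences was not tested. *Bgn*, encoding the proteoglycan biglycan, was the most abundant gene of the list, with 50802 and 106591 counts, and was 2.04-fold higher in dermal fibroblasts (2.02 to 2.06), a difference between 1.88-fold and 1.996-fold under the upper quartile, the *Actb* counts and the total without the 10 most abundant genes.

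**Figure D5:**
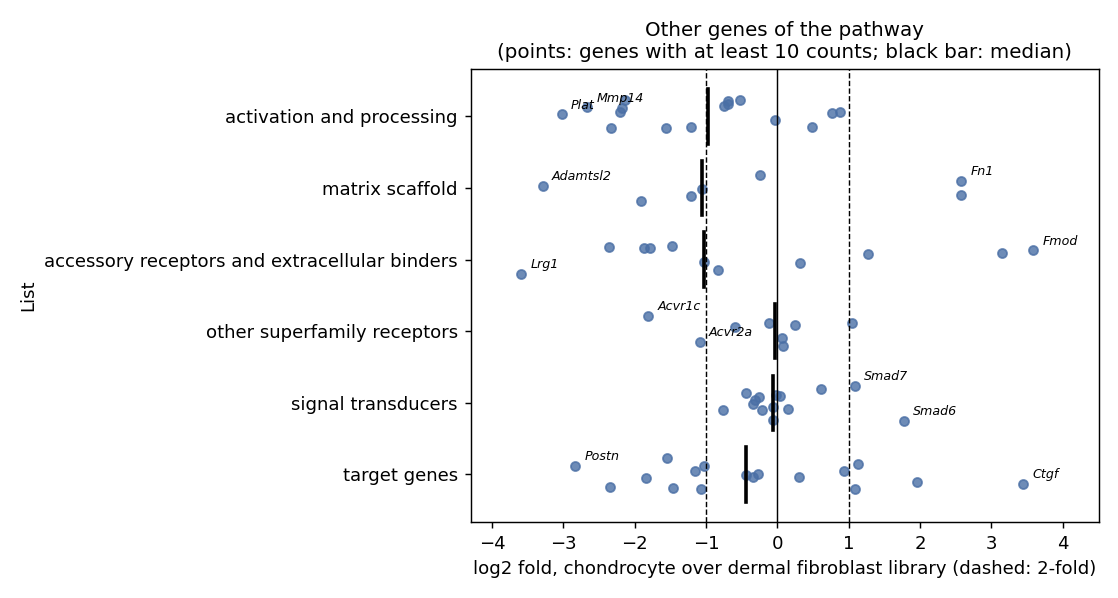
log2 fold of the chondrocyte over the dermal fibroblast library for the genes of 6 lists around the TGF-β ligands (points, genes with at least 10 counts; vertical placement within a list is random) with the list median as a black bar and 2-fold as dashed lines. Activation, scaffold and accessory genes have medians between -1.05 and -0.98, while the other receptors and the signal transducers have medians of -0.03 and -0.06.

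The list of receptors for related ligands and the list of signal transducers had medians near 0. Of 9 other receptors of the TGF-β superfamily, 6 (66.7%) lay within 2-fold, near the 72.0% of all genes. The median log2 fold of the 8 with at least 10 counts was -0.03, against -1.26 for the 3 TGF-β receptors. *Acvrl1*, a type I receptor described with the accessory genes (3.65-fold higher in dermal fibroblasts), is not among these 9. *Acvr1c*, the type I receptor ALK7, was furthest from 0 in this list and is named after its values were seen, with 5 counts in chondrocytes and 18 in dermal fibroblasts (3.51-fold, interval 1.25 to 12.1). *Bmpr1a*, the most abundant, had 2241 and 2200 counts (1.05-fold, interval 0.986 to 1.11). *Bmpr1b*, a bone morphogenetic protein receptor needed for cartilage condensation, had 212 and 106 counts and was 2.05-fold higher in chondrocytes (interval 1.62 to 2.62), or 1.87-fold with total counts. *Acvr2a*, an activin type II receptor, had 390 and 850 counts and was 2.12-fold higher in the other cells (interval 1.88 to 2.40), or 1.95-fold when scaled by *Actb* counts. Of 14 signal transducers 12 (85.7%) lay within 2-fold, and the 2 others were the inhibitory SMADs. *Smad6* had 829 and 250 counts and was 3.41-fold higher in chondrocytes (interval 2.95 to 3.94), and *Smad7* had 754 and 366 counts and was 2.12-fold higher (interval 1.87 to 2.40), which scaling by total counts lowered to 1.926-fold. The corepressor gene *Ski*, the most abundant of the list, had 3588 and 4588 counts.

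Genes known to be induced by TGF-β moved in either direction. Of 17, 4 were over 2-fold higher in chondrocytes (background 11.8%), 8 in dermal fibroblasts (background 16.2%) and 5 within 2-fold (median log2 fold of -0.44). With total counts 2 remained over 2-fold in chondrocytes, as *Smad7* and *Cyr61* fell below it. *Ctgf*, the connective tissue growth factor gene, had 43816 chondrocyte and 4141 dermal fibroblast counts and was 10.9-fold higher in chondrocytes (interval 10.5 to 11.2). *Cyr61*, of the same family, had 24254 and 11351 counts and was 2.19-fold higher there (interval 2.15 to 2.24). *Postn*, encoding the matrix protein periostin, had 5333 and 39067 counts and differed 7.13-fold (interval 6.93 to 7.34) in favour of dermal fibroblasts. *Pmepa1*, a feedback inhibitor of the pathway, was 5.07-fold higher there (845 and 4404 counts, interval 4.71 to 5.47), and the smooth muscle gene *Tagln* was 3.59-fold higher (2041 and 7518 counts, interval 3.41 to 3.77). Of the 6 smooth muscle and pericyte markers, 2 were over 2-fold higher in dermal fibroblasts, *Myh11* (140 and 707 counts) and *Mcam* (482 and 1204 counts). In chondrocytes 1 was over 2-fold higher, *Cspg4* (10824 and 2976 counts), and the others lay within 2-fold. The part of smooth muscle cells in these differences was not tested. *Smad7* and 2 genes within 2-fold also stand in the list of signal transducers. These target genes answer to other signals too, and pathway activity was not measured by these counts.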

How the data were processed

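Mouse RNA-Seq libraries of primary rib chondrocytes and primary dermal fibroblasts (1 library each) were analysed. The authors sequenced stranded mRNA libraries as 75 bp single-end reads, called bases with CASAVA 1.8.2, mapped to mm10 with TopHat2 2.0.13, Bowtie2 2.2.3 and SAMtools 0.1.19, and deposited the counts of reads on each gene symbol as whole numbers, not normalized. The counting program, annotation and strand setting are not given in the sources used here. Reads of genes that overlap a member could therefore not be told apart from its own, and these overlaps are not reported here. Library totals were 18788599 and 17563724 counts.

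TMM factors came from edgeR 4.0.16 (R 4.3.3) and were 0.954 for chondrocytes and 1.05 for dermal fibroblasts. Folds, exact Clopper-Pearson 95% intervals, Poisson intervals of CPM and conditional odds ratios were obtained in scipy 1.17.1 (Python 3.11.15, with pandas 2.3.3 and numpy 2.4.6), and the calculations were tested on simulated data. Counts under 3 were set to 3. With 1 library per group no test was possible. Exon lengths were the exon unions of GENCODE vM1 (NCBIM37), which named 89.8% of genes with a count. Gene positions and start regions are from RefSeq, GRCm38.p6, the assembly that mm10 names; no position was converted. In 27 rows the symbol had become a date, and these were not named.

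The members and gene lists were chosen with earlier results of these data known, and the motifs, the family sums, the longest-transcript lengths, the smooth muscle sum without *Cspg4* and the backgrounds of 500 counts, 10 counts and 4-fold were chosen after the data were seen. Named from each list were the most abundant gene and up to 3 genes each way with the largest folds over 2 and at least 100 counts, and from the marker lists the 2 most abundant genes, of which those bearing on a result are given. The markers *Matn1*, *Lect1*, *Dsg3* and *Bglap* (0 counts in a library), *Myh11*, *Mcam* and *Dcn* fall outside this rule. They were named after their values were seen. Alternatives were 5 other scalings (DESeq2 1.42.0 size factors among them), a floor of 10 counts, a pseudocount of 1, a filter of 10 counts on the lists, a fold over 4 and intervals wholly beyond 2-fold. The list medians were taken over genes with at least 10 counts throughout, so the filter could not move them.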

Additional observations from a re-analysis of the deposited data

How the results depend on the processing

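No paired analysis was possible because there was 1 library for each of the cell types, and for the same reason no library could be left out. Of 70 member folds under the 7 alternatives of scaling and floor, 54 stayed within the counting interval of the main value, 16 left it (all with total counts or *Actb* counts) and 0 changed direction. The shift in log2 fold was -0.14 with total counts and 0.12 with *Actb*. The 2-fold calls of the members stayed on their side except for *Ltbp4*, at 1.86-fold with total counts. With a fold over 4, which removes genes by construction, 1 member was higher in chondrocytes and 0 in dermal fibroblasts, and of the 71 genes of the 6 lists 5 were higher in chondrocytes and 11 in dermal fibroblasts, where 4.02% and 5.24% of all genes with a count were. The median log2 fold of the other superfamily receptors, -0.03, changed sign with the upper quartile (0.00588), with total counts without the 10 most abundant genes (0.0189) and with *Actb* counts (0.0952), and that of the signal transducers, -0.06, with *Actb* counts (0.0658). The depth limits the genes with few reads, such as *Adamtsl2* with 18 counts in chondrocytes, and no depth replaces the missing replicates.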
